A study of Homo sapiens with 6 samples.

Results

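The 37 genes described here encode the machinery of homologous recombination and of the Fanconi anaemia pathway, together with the checkpoint kinases that act at broken DNA. They were picked by gene symbol from a list; no threshold on a measured value entered the list, but earlier results of these data were known when it was drawn up. All 37 were present among the 19923 protein-coding genes of each count table. Their RNA was measured by RNA-seq in Kelly cells, an established human neuroblastoma line with amplified MYCN and, per the labels, wild-type genotype. Of 6 libraries of poly(A) RNA, 3 came from cells transfected with a control siRNA (siControl) and 3 from cells transfected with an siRNA against METTL3 (siMETTL3), all collected after 72 hours. METTL3 is the catalytic subunit of the enzyme that methylates adenosines in mRNA. All values below compare the libraries with METTL3 knocked down with the control libraries, in a single line at a single time. The labels do not say whether the libraries of a group came from separate cultures, so p-values measure only the spread between these libraries, which may be technical.

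Libraries held 15430000 to 21565013 counts, and siControl replicate 3 was the shallowest and lay farthest from the others of its group (correlation of log2 values across genes 0.986 and 0.990, against 0.992 between the other control libraries). Normalised expression is given as CPM, read counts scaled to a common library size, which is not corrected for gene length. METTL3, the targeted gene, stood at 53.5, 52.8 and 56.2 CPM in siControl and between 31.8 and 34.3 CPM in siMETTL3, so that 61.0% of the control level remained (log2 fold change -0.71, SE 0.070, edgeR FDR 4.68e-06). MYCN rose by a log2 fold change of 0.62 (SE 0.061, edgeR FDR 5.17e-06). All 8 markers of noradrenergic neuroblastoma, including HAND2, DBH and MYCN itself, were detected in every library, with a summed level of 4964 to 5484 CPM in siControl and 7417 to 7843 CPM in siMETTL3. MYCN, at 3021.0 and 4637.8 CPM on average, made up most of this sum and of its rise; HAND2, DBH, TH and GATA3 rose too, while ISL1 fell by 1.18 on the log2 scale (edgeR FDR 6.06e-08) and the other two did not pass. Immune markers summed to 2.25 to 3.06 CPM in siControl and to 1.75 to 2.28 CPM in siMETTL3, and 5 of the 6 averaged under 1 CPM. Epithelial markers summed to 7.43 to 7.88 CPM in siControl and 8.52 to 10.4 CPM in siMETTL3, with KRT5 at 0 and KRT19 higher (log2 fold change 1.15, edgeR FDR 0.00869). Endothelial markers summed to 5.64 to 7.0 CPM in siControl and 7.14 to 9.84 CPM in siMETTL3, with VWF higher (log2 fold change 0.68, edgeR FDR 0.00592). The fibroblast list summed to between 85.3 and 99.2 CPM in all libraries, nearly all of it PDGFRB, while DCN, LUM and COL1A2 averaged under 1 CPM and COL1A1 was higher in siMETTL3 at a mean of 5.26 CPM (log2 fold change 0.86, edgeR FDR 0.0200). The part of these markers in the results below was not tested.

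Homologous recombination repairs a DNA double-strand break from the sister chromatid and is therefore active in S and G2 phase. The MRE11-RAD50-NBN complex and its partner RBBP8 start to trim the broken end, EXO1 extends the single strand, and BRCA1-BARD1, PALB2 and BRCA2 prepare it for strand exchange with the intact copy. The Fanconi core complex marks FANCD2-FANCI with ubiquitin at interstrand crosslinks, which feeds the lesion into the same route. ATM and ATR signal the damage through CHEK2 and CHEK1. Neuroblastomas with amplified MYCN are known for replication stress, in which ATR and CHEK1 limit damage at stalled forks.

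Part of the repair genes fell slightly after METTL3 knockdown, and the larger part did not pass the test. All 37 were expressed highly enough to be tested. Of these, 16 fell and 1 rose at an FDR under 0.05 (edgeR quasi-likelihood test, adjusted over all 15311 tested genes), and 20 did not pass. Thus 43.2% of the repair genes fell, against 19.2% of all tested genes and 24.0% of those in the same range of average expression; 18.6% of all tested genes rose. In either direction 45.9% of the repair genes passed, near the 37.8% of all tested genes. The fitted change was negative for 29 of the 37, with a median log2 fold change of -0.17 against -0.0021 for all tested genes. The changes were small, from -0.47 in RAD51AP1 to 0.19 in FANCC. Only 3 of the 37 (8.11%) combined a call with an absolute log2 fold change of at least 0.3, against 25.9% of all tested genes. In bulk RNA, fewer cells in the phases that express a gene and less RNA per cell cannot be told apart.

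The size of this count rested on single libraries. Without siMETTL3 replicate 1, 8 repair genes fell and 0 rose, and without siMETTL3 replicate 2 the numbers were again 8 and 0; 13.7% and 14.3% of all tested genes fell in these fits. A set of 7 genes, RAD51AP1, XRCC2, FANCI, BRIP1, EXO1, RBBP8 and ATR, kept a call as lower in each of the 20 alternatives that tested the gene.

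**Figure D1:**
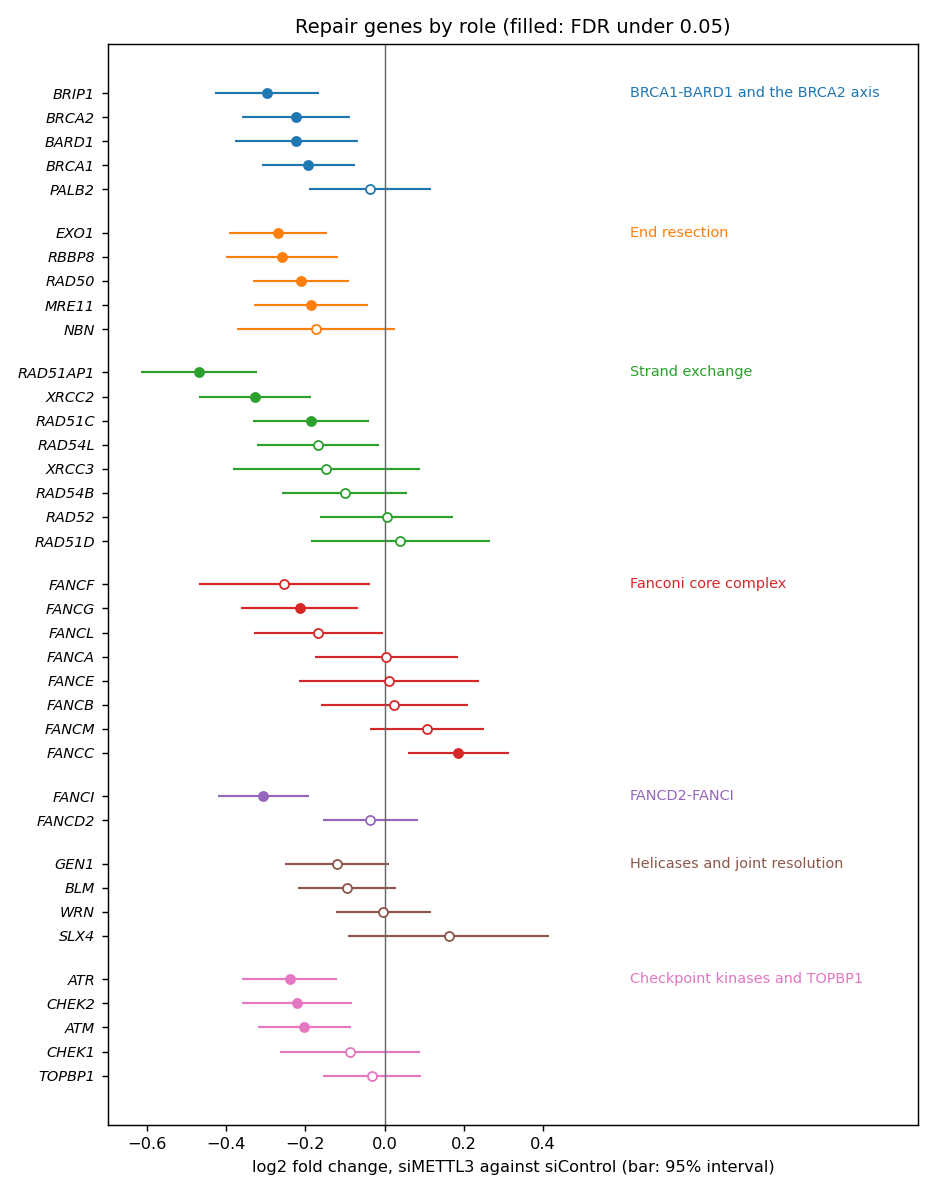
Log2 fold change of each of the 37 repair genes in siMETTL3 against siControl (x axis) with its 95% interval, grouped by role; filled points are at an FDR under 0.05. Filled points lie left of 0 in all groups but the helicase group, which holds none, and FANCC at 0.19 is the filled point to the right.

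The checkpoint kinases at the head of the pathway fell, except CHEK1, where 19.2% of all tested genes fell. Whether the role groups described here and below differ was not tested. ATR, the kinase activated at stalled replication forks (chr3:142449007-142578733, minus strand), was measured at 164.9, 174.6 and 180.3 CPM in siControl and at 147.3, 144.1 and 148.7 CPM in siMETTL3. Every siMETTL3 library lay below every control library, and the log2 fold change was -0.24 (SE 0.056, edgeR FDR 0.00413). ATM, the kinase activated at double-strand breaks, went from 166.0, 163.4 and 168.4 CPM to 142.3, 139.7 and 150.4 CPM, again without overlap (log2 fold change -0.20, SE 0.055, edgeR FDR 0.00994). Leaving out siMETTL3 replicate 1 or 2 ended this call (edgeR FDR 0.0572 and 0.0554), in a range of 1.05e-04 to 0.0572 over all alternatives. CHEK2, the effector of ATM, fell by 0.22 on the log2 scale (edgeR FDR 0.0154), a call that leaving out control library 2 or either of the first 2 siMETTL3 libraries ended (FDR 0.0580, 0.0608 and 0.0753, range 4.65e-04 to 0.0753). CHEK1, the effector of ATR, did not pass: it stood at 44.0, 44.8 and 53.2 CPM in siControl and 46.6, 42.7 and 44.1 CPM in siMETTL3. The groups overlapped, control replicate 3 being the high one, and the log2 fold change of -0.09 had an interval of -0.26 to 0.09. TOPBP1, the activator of ATR, had a log2 fold change of -0.03 (interval -0.15 to 0.09, edgeR FDR 0.711).

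Of the 5 end resection genes 4 fell (80.0%, against 19.2% of all tested genes) and NBN did not pass. EXO1, the exonuclease of long-range resection (chr1:241847967-241895148), was at 144.9, 143.6 and 156.3 CPM in siControl and at 120.0, 121.3 and 127.7 CPM in siMETTL3. The groups did not overlap (log2 fold change -0.27, SE 0.058, edgeR FDR 0.00246). RBBP8, also called CtIP, which starts resection with MRE11, went from 68.7, 61.6 and 65.1 CPM to 56.4, 52.5 and 54.4 CPM (log2 fold change -0.26, SE 0.066, edgeR FDR 0.00723). Within the MRE11-RAD50-NBN complex, RAD50 fell by 0.21 and MRE11 by 0.19 on the log2 scale (edgeR FDR 0.00981 and 0.0420). The MRE11 groups overlapped, since siMETTL3 replicate 3 at 116.4 CPM was above siControl replicate 1 at 116.2 CPM. MRE11 lost its call without any of 5 single libraries and under 3 other alternatives, with FDR values of 4.33e-04 to 0.157 in all, and RAD50 lost it without siMETTL3 replicate 2 (FDR 0.0533; range 1.18e-04 to 0.0533). NBN did not pass (log2 fold change -0.17, interval -0.37 to 0.03); its control values were 47.2, 50.8 and 62.7 CPM, with replicate 3 the high one. It was called lower without siControl replicate 1 (edgeR FDR 0.0194) and with an offset for gene span (0.0333). With this span offset 24.7% of all tested genes fell. Over all alternatives NBN ranged from -0.28 to -0.05 on the log2 scale (FDR 0.0194 to 0.615).

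Among BRCA1, BARD1, PALB2, BRCA2 and BRIP1, all but PALB2 fell (80.0%, against 19.2% of all tested genes). BRIP1, a helicase that binds BRCA1 (also FANCJ; chr17:61679139-61863528, minus strand), was at 223.0, 210.5 and 227.6 CPM in siControl and at 189.0, 167.4 and 181.4 CPM in siMETTL3. Its log2 fold change was -0.30 (SE 0.061, edgeR FDR 0.00173), and the groups were apart. BRCA1 (chr17:43044295-43170245, minus strand), the ubiquitin ligase that promotes resection, went from 209.3, 197.4 and 196.7 CPM to 172.7, 181.5 and 174.0 CPM. The groups were apart, with means of 201.1 ± 7.07 and 176.1 ± 4.75 CPM (SD, n = 3 each). The log2 fold change was -0.19 (SE 0.055, edgeR FDR 0.0134), and leaving out siMETTL3 replicate 1 or 3 ended the call (FDR 0.0772 and 0.0612, range 1.67e-04 to 0.0772). BRCA2 (chr13:32315086-32400266), which acts on the resected single strand, went from 95.2, 101.3 and 107.1 CPM to 85.9, 83.1 and 90.7 CPM. All siMETTL3 values were below the lowest control, with a log2 fold change of -0.22 (SE 0.064, edgeR FDR 0.0129; FDR 0.0584 without siMETTL3 replicate 1 and 0.0680 without replicate 2, range 1.18e-04 to 0.0680). BARD1, the partner of BRCA1, fell by 0.22 on the log2 scale (edgeR FDR 0.0264). Its call ended when control library 3 or either of the first 2 siMETTL3 libraries was left out (edgeR FDR 0.0564, 0.0745 and 0.127, range 2.03e-04 to 0.127). PALB2, which bridges BRCA1 and BRCA2, had a log2 fold change of -0.04 with an interval of -0.19 to 0.12.

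The genes of strand exchange held the 2 steepest falls and also genes with almost no change. RAD51AP1, which stimulates pairing with the homologous strand (chr12:4538798-4560048), was at 92.4, 99.2 and 109.1 CPM in siControl and at 72.5, 69.7 and 74.7 CPM in siMETTL3. The highest siMETTL3 value was thus well under the lowest control value, and 72.2% of the control level remained (log2 fold change -0.47, SE 0.069, edgeR FDR 1.40e-04). XRCC2, a strand exchange factor (chr7:152644776-152676141, minus strand), went from 147.0, 138.1 and 124.5 CPM to 111.4, 104.8 and 110.5 CPM. Its groups did not overlap although control replicate 3 was low (log2 fold change -0.33, SE 0.066, edgeR FDR 0.00156). RAD51C, which works in complex with XRCC2 or XRCC3, fell by 0.19 on the log2 scale at an FDR of 0.0448 in edgeR, and 11 of 20 alternatives ended this call (FDR 0.00463 to 0.173 in all). RAD51D and XRCC3, of the same complexes, had log2 fold changes of 0.04 and -0.15 and wide intervals (-0.19 to 0.27 and -0.38 to 0.09). XRCC3 was called lower without siControl replicate 3 (edgeR FDR 0.0125) and with the GC and transcript length offset (0.00870). Its range over all alternatives was -0.30 to -0.04 (FDR 0.00705 to 0.806). RAD52, an annealing protein, was at 55.0 ± 6.04 CPM in siControl and 55.3 ± 1.53 CPM in siMETTL3 (SD, n = 3 each). RAD54L and RAD54B, translocases that help strand invasion, had log2 fold changes of -0.17 and -0.10 (edgeR FDR 0.0825 and 0.310). Both were called lower with the span offset (edgeR FDR 0.0145 and 0.0278), and RAD54L also without siControl replicate 3 (0.00741) and with the GC and transcript length offset (0.00119). Across the alternatives the FDR ran from 7.81e-04 to 0.269 in RAD54L and from 0.0132 to 0.988 in RAD54B.

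FANCI and FANCD2, the paired substrates of the Fanconi core complex, had unlike values. FANCI (chr15:89243949-89317261) was at 144.6, 145.6 and 150.8 CPM in siControl and at 118.3, 117.9 and 120.3 CPM in siMETTL3. The values within each group were close together and the groups far apart, which gave a log2 fold change of -0.31 (SE 0.053, edgeR FDR 5.31e-04). FANCD2 (chr3:10026414-10101930) was at 117.2, 125.0 and 119.5 CPM in siControl and at 118.2, 113.9 and 120.8 CPM in siMETTL3. These groups overlapped, and the log2 fold change of -0.04 had an interval of -0.16 to 0.08. Whether the 2 genes differ in their change was not tested.

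Of the 8 core complex genes 1 rose (12.5%), 1 fell (12.5%) and 6 did not pass, where 18.6% of all tested genes rose and 19.2% fell. FANCC (chr9:95099054-95426796, minus strand), a subunit that joins FANCE and FANCF to the complex, was the 1 repair gene that rose, from 70.4, 67.3 and 72.1 CPM to 81.2, 80.5 and 76.9 CPM. Every siMETTL3 library was above every control library, and the log2 fold change was 0.19 (SE 0.060, edgeR FDR 0.0243). The call did not survive an offset for gene span (FDR 0.196) or for transcript GC content and length (FDR 0.348), nor leaving out control library 2 or either of the first 2 siMETTL3 libraries (FDR 0.116, 0.104 and 0.0866, range 0.00836 to 0.371). FANCG, a scaffold of the complex, went from 43.3, 42.6 and 41.5 CPM to 36.0, 37.4 and 36.5 CPM. This was a fall of 0.21 on the log2 scale (edgeR FDR 0.0242) that 4 of the 6 fits without a library did not call, those without control library 2 and without each siMETTL3 library in turn (FDR 0.0719, 0.0931, 0.0512 and 0.0691, range 2.72e-04 to 0.0931); the span offset also ended it (FDR 0.0618). Of the others, FANCF and FANCL had log2 fold changes of -0.25 and -0.17, FANCM, the DNA-binding translocase, had 0.11, and FANCA, FANCE and FANCB lay between 0.0044 and 0.02. FANCF and FANCL were called lower without siControl replicate 1 (edgeR FDR 0.0288 for each), FANCF also without siControl replicate 3 (0.0354) and FANCL with the span offset (0.0107). Across the alternatives FANCF ranged from -0.31 to -0.17 (FDR 0.0288 to 0.266) and FANCL from -0.28 to -0.04 (FDR 0.00204 to 0.638). FANCA overlapped widely, with 192.4, 172.0 and 146.5 CPM in siControl around 177.9, 169.0 and 166.1 CPM in siMETTL3.

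No gene of the late steps passed, where 37.8% of all tested genes did. BLM, the helicase that dissolves joined strands, was lower in every siMETTL3 library (82.2, 79.1 and 82.0 against 77.3, 74.1 and 76.4 CPM), but by a log2 fold change of -0.09 only (edgeR FDR 0.217). WRN, a related helicase, was level, at 106.8 ± 2.42 CPM in siControl and 106.6 ± 2.84 CPM in siMETTL3 (SD, n = 3 each). GEN1, a resolvase, and SLX4, the scaffold of structure-specific nucleases, had log2 fold changes of -0.12 and 0.16 (edgeR FDR 0.141 and 0.304). Beside the 0 of 4 genes called here by edgeR, 0 had an unadjusted p under 0.05, and DESeq2 and limma-voom also called 0. With the span offset BLM and GEN1 were lower and past the threshold (FDR 0.00960 and 0.0196), where 24.7% of all tested genes fell. SLX4 was higher without siControl replicate 1 (FDR 0.0132). Across the alternatives the FDR reached 0.405 in BLM, 0.373 in GEN1 and 0.694 in SLX4.

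**Figure D2:**
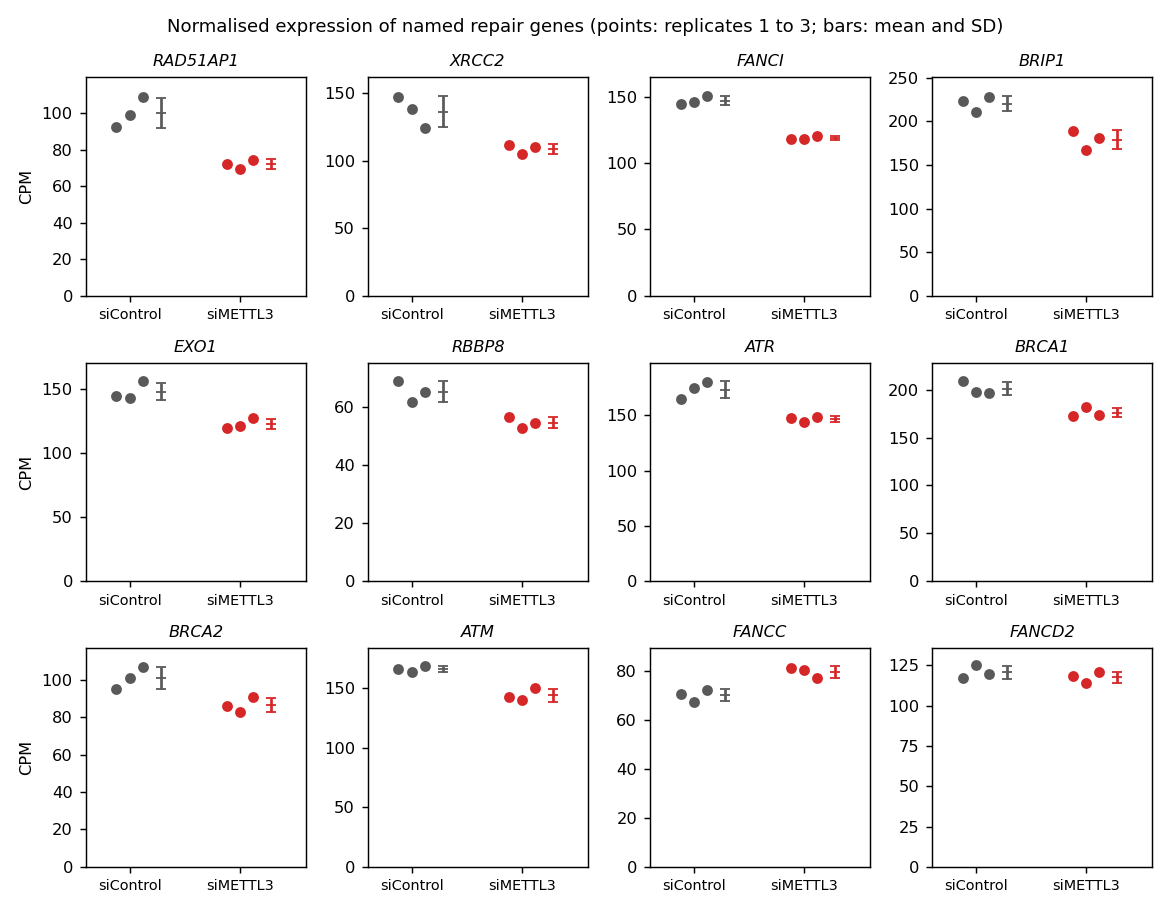
CPM (y axis, from 0) of 12 repair genes in the 3 siControl and 3 siMETTL3 libraries (points) with mean and SD (bars). In RAD51AP1 the control points span 92.4 to 109.1 CPM and the siMETTL3 points 69.7 to 74.7 CPM; the points of FANCD2 overlap.

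The shift was present in each siMETTL3 library. Summed over the 37 genes, expression was 3450, 3398 and 3457 CPM in the siControl libraries and 3107, 3001 and 3125 CPM in the siMETTL3 libraries. The median over the 37 genes of the difference from the siControl mean was -0.143, -0.160 and -0.150 on the log2 scale in siMETTL3 replicates 1, 2 and 3, while the same median over all tested genes was at most 0.006 in size. Counted gene by gene, 17 of the 37 had all siMETTL3 values below all control values and 2, FANCC and FANCM, had them all above. Across all tested genes 25.1% lay entirely below, and 49.9% did not overlap in either direction, against 51.4% of the repair genes.

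**Figure D3:**
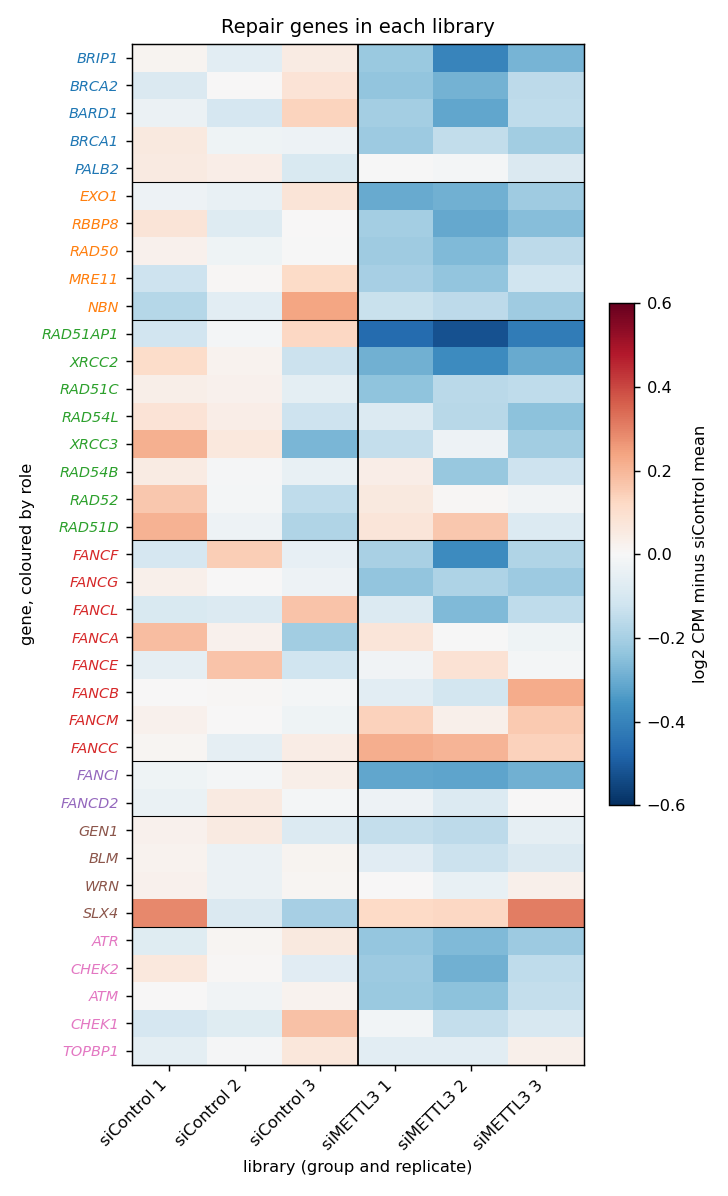
Log2 CPM minus the siControl mean (colour) of the 37 repair genes (rows, by role) in each library (columns). The siMETTL3 columns are mostly blue, with medians of -0.143, -0.160 and -0.150, and the third siControl column differs most within its group.

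Libraries of both groups deviated from their group mean along GC content, siControl replicate 3 the most. Its deviation fell with the GC content of the canonical transcript, with a Pearson r of -0.26 over all tested genes and -0.68 over the 37 repair genes. The same values were 0.19 and 0.58 in siControl replicate 1 and 0.21 and 0.59 in siMETTL3 replicate 2. They were -0.17 and -0.42 in siMETTL3 replicate 3 and smaller in the others. These are descriptions across genes of 1 library, which are not independent. Each deviation is taken from the mean of its own group, so a trend in 1 library forces an opposite one in the rest of the group. The values within a group are therefore not separate observations. For example, the GC-rich repair genes XRCC3 (62.8% GC), SLX4 (57.6%) and FANCA (55.4%) were lowest in siControl replicate 3, and NBN (36.9%) was highest there. Not every gene followed this trend. FANCG (57.7%) was at 41.5 CPM there, against 43.3 and 42.6 CPM in the other controls. FANCB (36.8%) was at 43.9 CPM, against 44.3 and 44.5 CPM. The edgeR fold changes of the repair genes had an r of 0.37 with GC content, against 0.18 over all tested genes with a GC value. With siControl replicate 3 left out of the control mean, the r was 0.13. This second value used differences of mean log2 CPM and not edgeR fold changes, so the measures differ too. In the edgeR fit without siControl replicate 3, 18 repair genes fell and 1 rose, where 20.7% of all tested genes fell. When GC content and transcript length were entered as an offset, an alternative chosen after the data were seen, 18 fell and 0 rose, FANCA among those that fell (log2 fold change -0.18, edgeR FDR 0.0150; range 0.00788 to 0.986), and 25.1% of all tested genes fell.

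**Figure D4:**
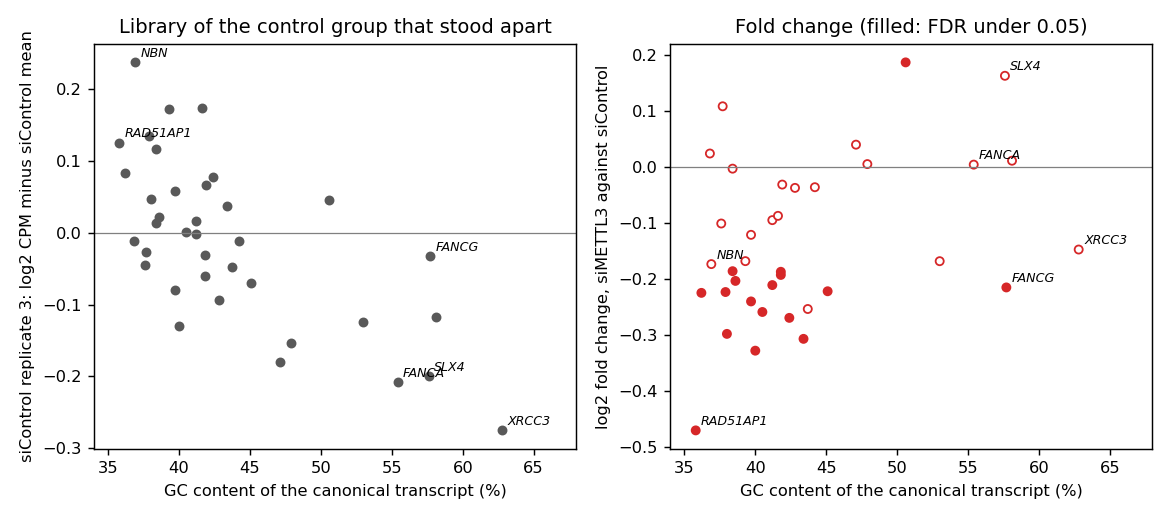
GC content of the canonical transcript (x axes, percent) against the deviation of siControl replicate 3 from the siControl mean (left) and against the log2 fold change (right), 1 point per repair gene. The deviation falls with GC content (r = -0.68), while the fold change has an r of 0.37.

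Some counts hold reads of neighbouring genes. Reads were counted over the whole gene span, introns included, without regard to strand, and reads in shared stretches count toward every gene there. Shared stretches were looked for among the counted protein-coding genes only, and they exist for 16 of the 37 genes. Overlaps with non-coding genes were not looked for. GEN1 lies wholly within SMC6. The SMC6 count, over 178 CPM in every library, includes all reads of the GEN1 span and is not the expression of SMC6 alone. RAD50 and RAD51D lie almost wholly within AC116366.3 and AC004223.3 (99.7% and 99.9% of the span). XRCC3 is covered to 93.0% by KLC1, RAD54B to 62.8% by FSBP, RAD54L to 54.0% by LRRC41, ATM to 41.3% by C11orf65, FANCD2 to 27.3% by FANCD2OS and FANCI to 16.5% by POLG. POLG fell too (log2 fold change -0.20, edgeR FDR 0.0237). For these genes the reads of the partners cannot be told apart. METTL3 itself shares 7.9% of its span with TOX4, so its count can hold TOX4 reads. TOX4 fell by 0.20 on the log2 scale (edgeR FDR 0.0431). Of the 21 repair genes that overlap no other counted gene, 11 fell and 1 rose in the same fit. All 12 were called again, in the same direction, when the fit was made on genes without such overlaps only. In that fit 19.9% of all tested genes fell.

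E2F factors switch on many S phase genes, and short matches to an E2F-type site were looked for in promoters, here 250 bases before to 50 after the RefSeq start (GRCh38.p14, found for 33 of the 37). The letters searched were TTTCCCGC, TTTGGCGC, TTTCGCGC and TTTGCCGC on both strands. Such a match was present in 7 of the 33 promoters (21.2%), in 4.47% of the promoters of all genes in the table, and in 56.5% of those of the S phase and proliferation list described below. The matches are printed so that each can be read beside the change of its gene, in windows of 30 bases on the strand of the gene, 5′ to 3′, with the match in capitals:
EXO1, fell, match at +5, chr1:241848197-241848226, plus strand: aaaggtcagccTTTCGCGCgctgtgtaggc
XRCC2, fell, match at +22, chr7:152676102-152676131, minus strand: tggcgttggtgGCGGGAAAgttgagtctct
FANCD2, not called, match at -2, chr3:10026424-10026453, plus strand: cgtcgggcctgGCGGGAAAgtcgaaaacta
TOPBP1, not called, match at -7, chr3:133661930-133661959, minus strand: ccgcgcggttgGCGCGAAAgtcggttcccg
GEN1, not called, match at +2, chr2:17753859-17753888, plus strand: cagttgcggggTTTCGCGCcgccggagtct
FANCA, not called, match at -172, chr16:89816801-89816830, minus strand: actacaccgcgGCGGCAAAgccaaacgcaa
FANCC, rose, nearer of 2 matches at -46, chr9:95317737-95317766, minus strand: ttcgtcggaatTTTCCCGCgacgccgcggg

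Positions give the first base of the match, counted from the RefSeq start as +1. In EXO1, XRCC2, FANCD2, TOPBP1 and GEN1 the match lies within 22 bases of the start. Of the 7 genes with a match 2 fell and 1 rose, with a median log2 fold change of -0.04; of the 26 without, 13 fell and 0 rose, with a median of -0.19. A second type of letters, the CHR-type TTTGAA and TTCGAA, was found in 3 of the 33 promoters (9.09%, against 13.4% of all), those of BRIP1, FANCC and ATM. The BRCA1 window (chr17:43170278-43170577) lies wholly outside the counted BRCA1 span, which ends at 43170245. No other start of BRCA1 was searched, and the gene is counted among the 26 without a match. A match is a run of letters and not a measured binding site.

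Of 45 other genes of recombination and the Fanconi pathway, 13 fell and 2 rose (median log2 fold change -0.14). These are 28.9% and 4.44%, against 19.2% and 18.6% of all tested genes, and the 33.3% called in either direction are below the 37.8% of all. CENPX, a partner of FANCM, fell by 0.77 on the log2 scale (edgeR FDR 1.79e-06) and RECQL, a helicase, by 0.41 (1.44e-04). FBH1, an anti-recombinase helicase, and FIGNL1, an ATPase of recombination, rose by 0.32 and 0.27 (edgeR FDR 0.00119 and 0.00808). FIGNL1 lost its call with the span offset (FDR 0.0661) or without siMETTL3 replicate 1 (FDR 0.0551; range 8.70e-05 to 0.0661).

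Among 27 genes of break signalling and of the TP53BP1-shieldin branch, which opposes resection, 9 fell (33.3%) and 5 rose (18.5%, against 18.6% of all tested genes), with a median of -0.14. RNF168, the ubiquitin ligase that recruits TP53BP1, rose from 54.2, 53.2 and 54.2 CPM to 81.4, 81.2 and 78.0 CPM (log2 fold change 0.57, edgeR FDR 7.75e-06), and UIMC1, which holds BRCA1 at ubiquitin marks, rose by 0.46 (1.90e-04). CDC25A, the phosphatase that CHEK1 targets, fell by 0.48 on the log2 scale (edgeR FDR 3.80e-05), and RAD1, of the checkpoint clamp, by 0.52 (3.47e-04). Of 15 end-joining genes 6 fell (40.0%) and 1 rose (6.67%), with a median of -0.16: PRKDC, the catalytic subunit of DNA-PK, fell by 0.27 (edgeR FDR 0.00125), DCLRE1C, the Artemis nuclease, fell by 0.26 (0.00211), and NHEJ1 rose by 0.33 (0.00447).

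The S phase and proliferation list had the lowest median of the lists, with 19 of 28 genes lower (67.9%) and 4 higher (14.3%), at a median of -0.27. PCNA, the sliding clamp, fell by 0.64 on the log2 scale (edgeR FDR 6.16e-06) and MCM4, of the replicative helicase, by 0.55 (8.08e-06). The 4 that rose were MKI67, E2F3, FOXM1 and MYBL2; E2F3 and FOXM1 rose by 0.30 and 0.28 (edgeR FDR 0.00206 and 0.00245; FOXM1 not past the threshold with the GC and transcript length offset, FDR 0.0661, range 2.46e-04 to 0.0711). Of the other E2F genes listed, E2F1, E2F7 and E2F8 fell by 0.43, 0.46 and 0.51 (edgeR FDR 7.06e-04, 4.59e-04 and 0.00566). E2F2 did not pass (log2 fold change -0.10, edgeR FDR 0.438). The part of this list in the fall of the repair genes was not tested.

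**Figure D5:**
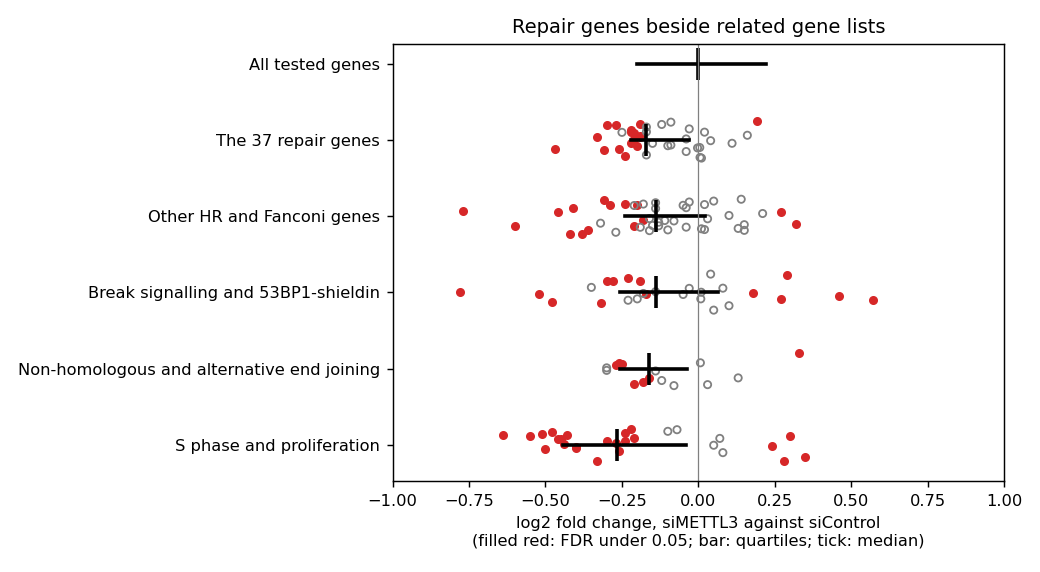
Log2 fold change (x axis) of the 37 repair genes and 4 related lists, 1 point per gene (red, FDR under 0.05), with median and quartiles; all tested genes are shown by median and quartiles only. Medians lie at -0.17 for the repair genes and -0.27 for the S phase list, and at -0.0021 for all tested genes.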

How the data were processed

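The deposited tables hold raw read counts per gene; per the file headers the authors made them with featureCounts 1.5.3 on a protein-coding GENCODE release 33 annotation, counting whole gene spans, with reads over several genes counted for each and no strand option. The submitters' processing notes name FastQC 0.11.5, Trimmomatic 0.36, HISAT2 2.1.0 and GRCh38. Coordinates are those of the tables; each of 18999 spans also annotated in GENCODE release 44 lay on its namesake there. Transcript GC content and length came from that release, promoters from RefSeq.

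Counts were filtered with filterByExpr (15311 genes kept), scaled by TMM and compared with edgeR 4.0.16 in R 4.3.3 (robust quasi-likelihood F-test, 6 libraries, no covariate). FDR is the Benjamini-Hochberg value over all tested genes, with a threshold of 0.05. SE is the absolute log2 fold change over the square root of F, and intervals are 95% intervals. CPM values use the scaled library sizes; log2 CPM values carry a prior count of 2. Alternatives were RLE, upper quartile and total count scaling, other filters, no robust option, DESeq2 1.42.0, limma-voom (limma 3.58.1), a replicate block, genes without overlaps, offsets for span, and for GC content with transcript length (mgcv 1.9.3), and each library left out. The fit was also run on simulated counts in which few genes changed and no library stood apart. These data differ in both respects, so that run says little about the calls above.

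The repair genes, roles and lists were chosen with earlier results of these data known. Members named whatever their result were BRCA1, BRCA2, FANCD2, ATM, ATR and CHEK1; others were named for a called change of at least 0.3 or for the 2 smallest FDR values of their role, and 2 genes per direction were named from each related list. The other members, further genes of the S phase list, and the library values of members with smaller changes, were added after their values were seen. Libraries of a group differed by more than sampling noise (chi-square per degree of freedom 3.05 to 16.1).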

Additional observations from a re-analysis of the deposited data

How the results depend on the processing

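With all libraries, 16 repair genes fell and 1 rose. The counts under RLE scaling, no filter, a minimum of 10 counts in every library, no robust option and limma-voom were the same, and 14 fell and 1 rose under upper quartile scaling, total count scaling and DESeq2. With a library left out, 8 to 18 repair genes fell and 0 to 2 rose, with a median log2 fold change of -0.18 to -0.15. The share of all tested genes that fell also varied between these fits, from 13.7% to 20.8%. The median was -0.15 under total count scaling, -0.20 on genes without overlaps, -0.21 with the span offset and -0.15 with the GC and transcript length offset. With either offset 0 repair genes rose, where 21 (span) and 18 (GC) fell. All tested genes shifted down as well, to medians of -0.054 (span) and -0.038 (GC), and 24.7% and 25.1% of them fell. Without an offset their median was -0.0021 and 19.2% fell. On genes without overlaps 1897 of 9517 fell and 1852 rose, fewer genes being tested.

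Deviations of same-numbered libraries correlated at 0.040, 0.049 and 0.067, and those of differently numbered libraries at -0.064 to 0.026. The values were small but highest for the same numbers, and whether replicate numbers pair the libraries was not tested. With a replicate block 16 repair genes fell and 1 rose, RAD51C leaving and RAD54L entering (edgeR FDR 0.0499), and 40.3% of all genes passed. Adding the block to an offset left the medians at -0.21 (span) and -0.15 (GC) and 0 repair genes higher.

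The sign turned in 10 repair genes, all with small changes, and the cause was not tested. WRN was at 0.01 (upper quartile), 0.02 (total count), 0.0032 (minimum of 10) and 0.03 (GC offset, also with the block). RAD52 was at -0.0013 (no filter), -0.01 (no overlaps), -0.10 (span, both fits), -0.04 (GC) and -0.03 (GC with block). FANCA was at -0.0023 (no filter), -0.10 (span), -0.09 (span with block) and -0.18 (GC, both fits). FANCE was at -0.0062 (no overlaps) and -0.14 (GC, both fits). RAD51D was at -0.01 (span), -0.006 (span with block), -0.07 (GC) and -0.06 (GC with block). FANCB was at -0.05 (span, both fits), RAD54B at 0.0017 (GC) and 0.0028 (with block), and SLX4 at -0.06 (GC) and -0.05 (with block). With a library left out, log2 fold changes ranged from -0.04 to 0.15 in RAD51D, -0.07 to 0.09 in RAD52, -0.09 to 0.10 in FANCA, -0.04 to 0.10 in FANCE, -0.09 to 0.08 in FANCB, -0.02 to 0.01 in WRN, -0.06 to 0.0012 in TOPBP1 and -0.14 to 0.00014 in CHEK1.

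Of the 17 called repair genes, 10 lost the call under at least 1 alternative, and 10 others gained one. With 3 libraries a group, standard errors were near the size of the smaller changes, and differences within the printed intervals were not detectable.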
